A study of Mus musculus with 10 samples.

Results

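The clustered H1, H2A, H2B and H4 genes were followed across 5 mouse embryonic stem cell (mESC) lines, each sequenced as 2 biological replicates from poly(A) RNA. Members were chosen by symbol alone: every gene of the table whose name places it in a histone cluster (Hist1 to Hist4) as an H1, H2A, H2B or H4 gene, which gave 56 of 20325 genes. They comprise 6 H1, 18 H2A, 19 H2B and 13 H4 genes, of which 45 lie in the Hist1 cluster on chromosome 13, 7 in Hist2 on chromosome 3, 3 in Hist3 on chromosome 11 and 1 in Hist4 on chromosome 6. The study asked how loss of the histone variant H3.3, or of its chaperone DAXX, alters transcription, and whether a returned protein restores it.

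The first line lacked DAXX (Daxx-/-, strain 129/SvEv), and the second was the same line carrying a FLAG-tagged mouse DAXX transgene (the DAXX-rescued line). The third lacked H3.3 (H3.3 KO, strain 129 x C57BL/6J). The last pair were H3.3 KO cells carrying FLAG-HA-tagged H3.3, either WT (the WT H3.3 line) or with the L126A-L130A substitutions named in the labels (the mutant H3.3 line), a form made to bind its chaperone without entering nucleosomes. All 5 lines were grown without feeders in 2i and LIF, a medium that holds mESCs in the naive state. The transgenes were delivered by lentivirus, driven by the EF1 promoter and selected with puromycin, whereas the KO lines used here as controls carry no label of an empty vector. Each rescued line therefore differs from its KO line by transduction and selection as well as by the protein, and the H3.3 lines differ from the Daxx lines in strain.

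Replication-dependent histone genes supply the protein that packages newly made DNA. They lie in clusters, are transcribed in S phase, and their mRNAs end in a short stem-loop bound by the stem-loop binding protein SLBP in place of a poly(A) tail. H2A and H2B form dimers, H4 pairs with H3 in the tetramer at the centre of the nucleosome, and H1 binds the linker DNA between nucleosomes. H3.3 is instead a replication-independent variant made from the separate genes H3f3a and H3f3b, whose mRNAs are polyadenylated. A library made from poly(A) RNA thus holds only what is retained of the tailless histone mRNAs, together with any transcripts that read through to a poly(A) signal. These values are not the total histone mRNA of the cells, and a change in amount cannot be told apart from a change in tailing or carry-over.

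The stem-loop that replaces the poly(A) tail was sought in the annotated transcripts of GENCODE M21, which held all 56 members, because it marks the transcripts that a poly(A) selection should largely miss. A stem of 6 bases, a loop of 4 and the mirrored stem were found in 37 members, and 7 forms of it occurred. Capitals mark the stem and lower case the loop:

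H1, H2A and H2B, 21 genes: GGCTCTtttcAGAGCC
H4, 7 genes: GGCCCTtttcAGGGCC
H1 and H2B, 3 genes: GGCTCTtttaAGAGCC
H4, 2 genes: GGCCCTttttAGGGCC
H4 (Hist1h4b and Hist1h4j), 2 genes: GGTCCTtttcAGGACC
H4 (Hist1h4a), 1 gene: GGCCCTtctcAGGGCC
H2A (Hist2h2ac), 1 gene: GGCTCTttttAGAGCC

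No H4 gene shared its stem with an H1, H2A or H2B gene. Of the 19 members without a match, 9 are annotated by their coding part alone, so the absence of the letters says nothing about the gene. In 16 members at least 1 annotated transcript carried a poly(A) signal (AATAAA or ATTAAA) in its last 40 bases, and 13 of these also held the stem-loop. Hist1h4i, which encodes H4, and Hist3h2a, which encodes H2A, were in that set of 13.

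Expression was low. The deposited values are RSEM expected counts, which the authors' program divides among genes when a read fits several, and they were scaled here by library depth to CPM (counts per megaread of the library) with median-of-ratios factors. All 56 members together took 0.00204% to 0.0350% of a library of 15463625 to 21396585 counts. None was at 0 in all 10 libraries, 5 had at most 3 counts in every library and 27 never reached 1 CPM. Testing was limited to the 13201 genes that reached 1 CPM in 2 or more libraries, among them 25 members: 4 H1, 9 H2A, 6 H2B and 6 H4 genes. A member could pass through a single line in which it was high, so counts over the 25 are given beside counts over all 56. CPM is not divided by transcript length, and levels are compared here between lines for 1 gene or 1 family, not between genes.

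Reads could not be assigned with certainty within a family. The coding part of Hist1h2ao is identical to that of Hist1h2ap, and so are those of Hist1h4m and Hist1h4n, Hist2h2aa1 and Hist2h2aa2, and Hist1h2bq and Hist1h2br. Hist1h2ad differs from Hist1h2ag by 2 of 393 coding bases and from Hist1h2ao by 3. Only 18.9% of the members' values above 0 were whole numbers (within 0.005), against 54.5% over all genes, and in the H2A family the share was 8.59%. Hist1h2bq and Hist1h2br have the same value in every library. For this reason summed levels of each family are given first. The kit does not mark strand, so reads from overlapping antisense transcripts would be counted too.

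The targeted genes were read first as a check of the labels. Daxx was 82.6 and 72.9 CPM in Daxx-/- and 206 in both DAXX-rescued libraries. It lay between 59.4 and 101 CPM in the H3.3 lines, so the gene's total did not set the Daxx-/- line apart from lines with an intact gene and says nothing about the protein. H3f3a was 382 to 494 CPM in the Daxx lines and 2.84 to 10.9 CPM in the H3.3 lines. H3f3b kept 509 and 720 CPM in H3.3 KO, so its total did not mark the loss, and it was lower in every rescued line than in the matching KO line. Of 8 pluripotency markers 7 were in the table, and their summed level was 5300 to 7200 CPM in every library, against 5.70 to 22.5 for primitive endoderm, 64.1 to 291 for formative epiblast and 5.66 to 50.6 for fibroblast markers. None of these markers was at 0 in all libraries.

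Summed over each family, the members were lower in the DAXX-rescued line than in Daxx-/- in both libraries for all 4 families. H4 genes summed to 9.65 and 10.5 CPM in Daxx-/- and 3.72 and 2.64 CPM in the DAXX-rescued line, a log2 ratio of -1.67 ± 0.36 (the square root of the summed variances of both lines' log2 values, n = 2 a line). H1 genes went from 7.60 and 7.54 CPM to 3.42 and 2.41 CPM, a log2 ratio of -1.38 ± 0.36. The libraries of the lines did not overlap in either family. H2A genes went from 18.6 and 15.9 CPM to 7.69 and 6.10 CPM, a log2 ratio of -1.32 ± 0.28, and H2B genes from 24.9 and 17.9 CPM to 15.4 and 9.10 CPM, a log2 ratio of -0.81 ± 0.63. No p is given for these sums.

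**Figure D1:**
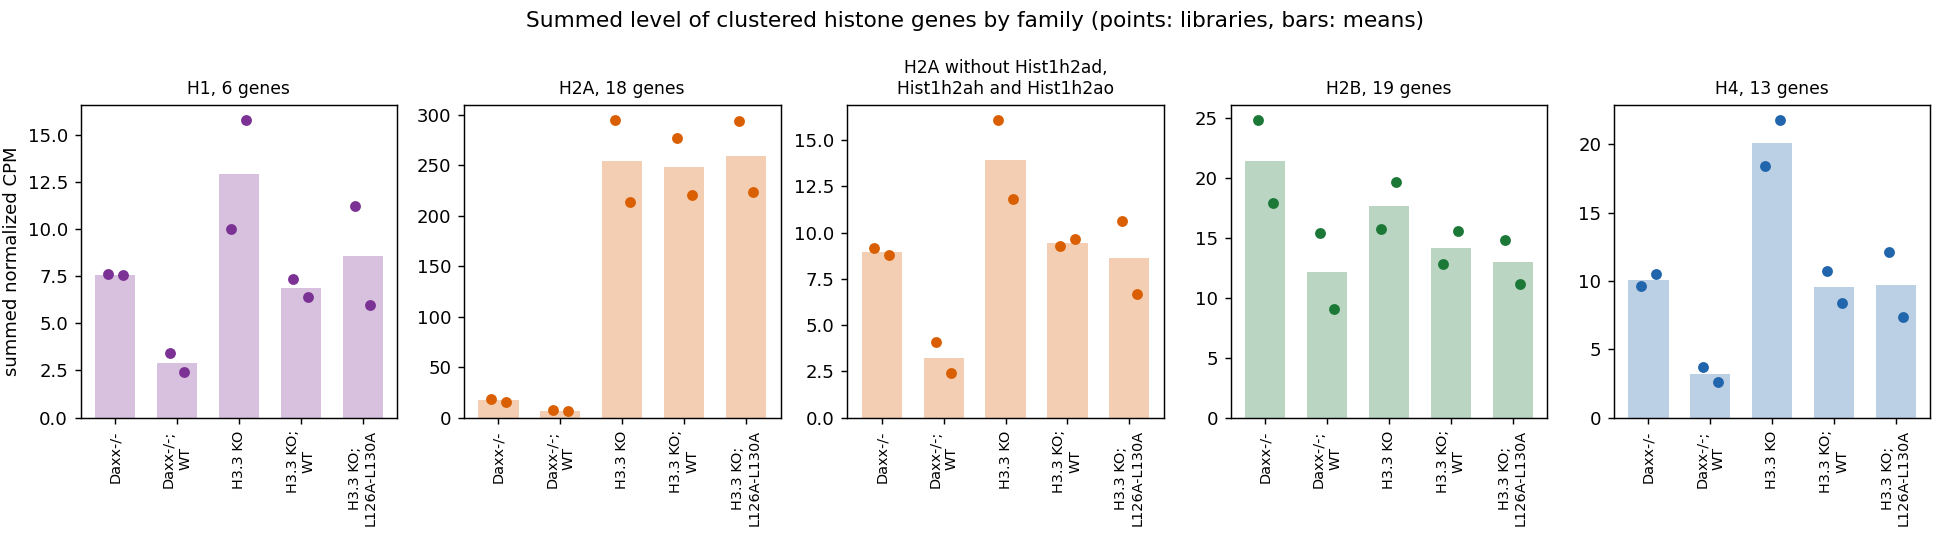
Summed normalized CPM of the H1, H2A, H2B and H4 genes (y axis, 1 scale a panel, from 0) in each line (x axis), with 1 point a library and bars at the mean of 2 libraries. H2A is shown with and without Hist1h2ad, Hist1h2ah and Hist1h2ao, because those 3 genes carry the H2A sum of 213 to 295 CPM in the H3.3 lines.

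In the H3.3 lines the 4 families did not move alike. H4 genes summed to 18.4 and 21.8 CPM in H3.3 KO, 10.7 and 8.42 CPM in the WT H3.3 line and 12.1 and 7.39 CPM in the mutant line. Both rescued lines therefore lay below the KO line, with log2 ratios of -1.07 ± 0.30 and -1.05 ± 0.53. H1 genes summed to 10 and 15.8 CPM in H3.3 KO, 7.33 and 6.38 CPM in the WT H3.3 line and 11.2 and 5.99 CPM in the mutant line, where replicate 1 overlapped the KO libraries. H2B genes were at 15.8 and 19.7, 12.8 and 15.6, and 14.8 and 11.2 CPM in the same order, with log2 ratios of -0.32 ± 0.30 for WT and -0.45 ± 0.36 for the mutant. The H2A sum was 295 and 213 CPM in H3.3 KO, 277 and 220 CPM with WT H3.3 and 294 and 223 CPM with the mutant, and overlapped throughout.

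The H2A genes Hist1h2ao, Hist1h2ad and Hist1h2ah set the H2A sum in the H3.3 lines. They held 74.4% to 87.4% of all member counts there and 11.9% to 18.3% in the Daxx lines. Without them the H2A sum was 16.1 and 11.8 CPM in H3.3 KO, 9.25 and 9.64 CPM with WT H3.3 and 10.6 and 6.69 CPM with the mutant, so that both rescued lines lay below the KO line (log2 ratios -0.56 ± 0.31 and -0.69 ± 0.56). All members without these 3 genes summed to 60.3 and 69.1 CPM in H3.3 KO, 40 CPM in both WT H3.3 libraries, and 48.7 and 31.3 CPM in the mutant line. This sum was chosen after the values were seen. Both sums without the 3 genes rest on how RSEM shared reads among near-identical H2A genes. The 3 genes together averaged 240 CPM in H3.3 KO, so a small shift in that sharing could change these differences.

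Restoring DAXX was examined gene by gene with edgeR's quasi-likelihood test in 1 fit of all 10 libraries, where differentially expressed (DE) means changed 2-fold or more with p under 0.05 after Benjamini-Hochberg correction. No member was DE between the DAXX-rescued and Daxx-/- lines, where 1.08% of all tested genes were. The smallest adjusted p was 0.0537, for Hist1h2bg and Hist1h4b. At an unadjusted p under 0.05 there were 14 members, all lower with DAXX, against 21.8% of all genes tested. DESeq2 called 7 members, all lower (Hist1h1a, Hist1h2ad, Hist1h2ao, Hist1h2bg, Hist1h4b, Hist1h4d and Hist1h4m), where 4.02% of all genes tested were called. With limma on log2(CPM + 1) Hist1h4d alone was called, where 1.82% of all genes were. With the replicate number as a block in edgeR, 9 members were DE, where 4.7% of all genes were. The labels name nothing that same-numbered libraries share, and the fit without the block was kept.

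Over all 56 members, 33 lay lower in both DAXX-rescued libraries than in both Daxx-/- libraries and 2 lay higher. Over all genes with a count these shares were 22.9% and 18.4%, beside 58.9% and 3.57% of the members. Of the 25 tested, 18 lay lower and 0 higher, where 24.7% and 21.7% of all genes tested did. By family, 9 of 13 H4 genes, 4 of 6 H1 genes, 11 of 19 H2B genes and 9 of 18 H2A genes lay lower. The H2B count holds both Hist1h2bq and Hist1h2br, whose values are identical. That pair also counts as 2 with WT H3.3, with the mutant and in mutant against WT. Near-identical members share reads, so such counts are not of separate observations. The fitted change was negative for 23 of 25, with a median log2 fold change of -1.38 against -0.02 over all genes tested. With 2 libraries against 2, an exact permutation test of any 1 gene cannot go below p = 0.33.

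**Figure D2:**
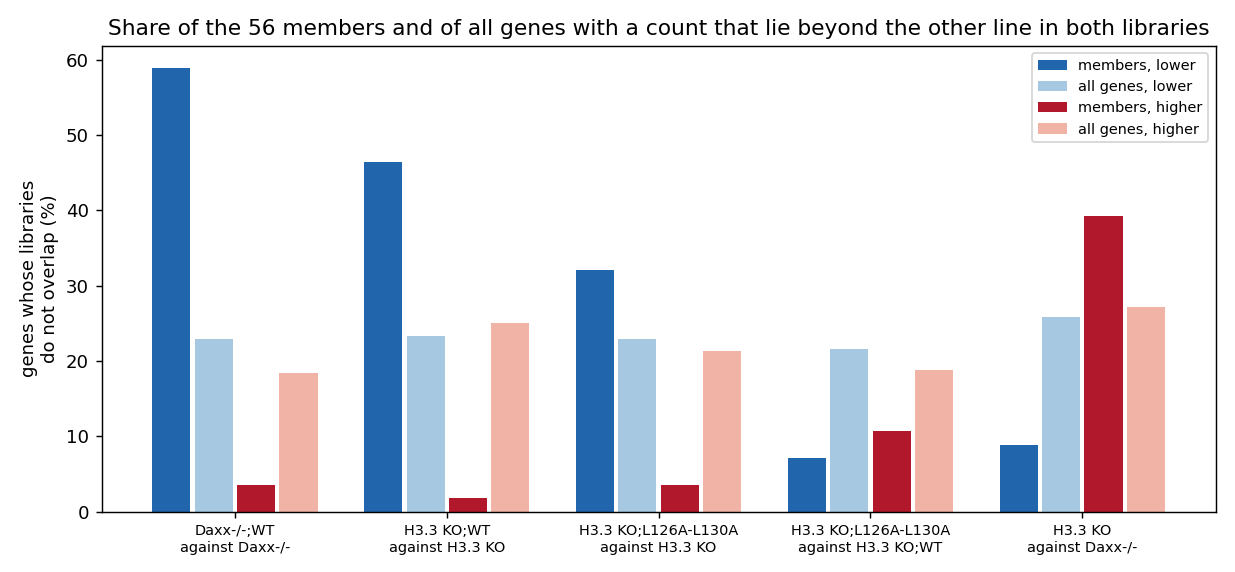
Share of the 56 members and of all genes with a count (y axis, %) whose 2 libraries of the first-named line all lie below or all above the 2 of the second, for each of the 5 comparisons (x axis). The lower share of the members was 58.9% for DAXX, 46.4% for WT H3.3 and 32.1% for mutant H3.3, where all genes stood at 22.9% to 23.4%.

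Among the H4 genes, Hist1h4b was at 1.26 and 0.996 CPM in Daxx-/- and 0.169 and 0.106 CPM with DAXX, a log2 fold change of -3.05 (SE 0.64). Hist1h4d was at 2.05 and 2.66 CPM against 0.496 and 0.393 CPM (-2.38, SE 0.51, adjusted p = 0.0565 in edgeR). Hist1h4m was at 1.58 and 2.29 CPM against 0.405 and 0.440 CPM (-2.16, SE 0.49, adjusted p = 0.0640 in edgeR). In all 3 the rescued libraries stood well below the KO libraries, yet the levels were low and none passed the adjusted test. Hist1h4i, with 1.16 and 1.97 CPM against 1.40 and 0.552 CPM, overlapped.

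Of the H2B genes, Hist1h2bg was at 1.6 and 0.950 CPM in Daxx-/- and 0.0892 and 0.175 CPM with DAXX, the most negative fitted change of the tested members at a log2 fold change of -3.20 (SE 0.67, adjusted p = 0.0537 in edgeR). Hist1h2bk was at 8.21 and 5.90 CPM against 3.92 and 2.31 CPM (-1.18), and its libraries did not overlap. Hist1h2bl was at 1.03 and 1.21 CPM against 0.287 and 0.145 CPM (-2.24, SE 0.88). Hist1h2bc, the H2B gene with most counts, went the other way in the fit, with 8.08 and 3.58 CPM in Daxx-/- and 8.55 and 5.16 CPM with DAXX, and its libraries overlapped. Hist1h2bj overlapped too, at 1.15 and 0.564 CPM against 0.584 and 0.134 CPM.

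Of the 9 H2A genes tested, 6 lay lower in both rescued libraries. Hist1h2ao was at 3.23 and 3.02 CPM in Daxx-/- and 1.37 and 1.16 CPM with DAXX (log2 fold change -1.27). Hist1h2ad was at 5.41 and 4.16 CPM against 1.33 and 2.55 CPM (-1.32, SE 0.30, adjusted p = 0.0656 in edgeR). Hist3h2a was at 0.592 and 1.71 CPM against 0.0496 and 0.225 CPM (-3.06, SE 1.00). These 3 genes did not overlap between the lines. Hist1h2ah had 0.755 and 0 CPM in Daxx-/- and 0.896 and 0 CPM with DAXX, which shows no order.

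For the linker histones, Hist1h1a was at 3.66 and 3.16 CPM in Daxx-/- and 0.595 and 0.898 CPM with DAXX (log2 fold change -2.19, SE 0.54, adjusted p = 0.0759 in edgeR). Hist1h1d was at 0.943 and 0.343 CPM against 0.202 and 0.181 CPM (-1.76, SE 0.90). Both lay lower in each rescued library. Hist1h1c, at 1.59 and 3.35 CPM against 2.37 and 1.10 CPM, overlapped.

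**Figure D3:**
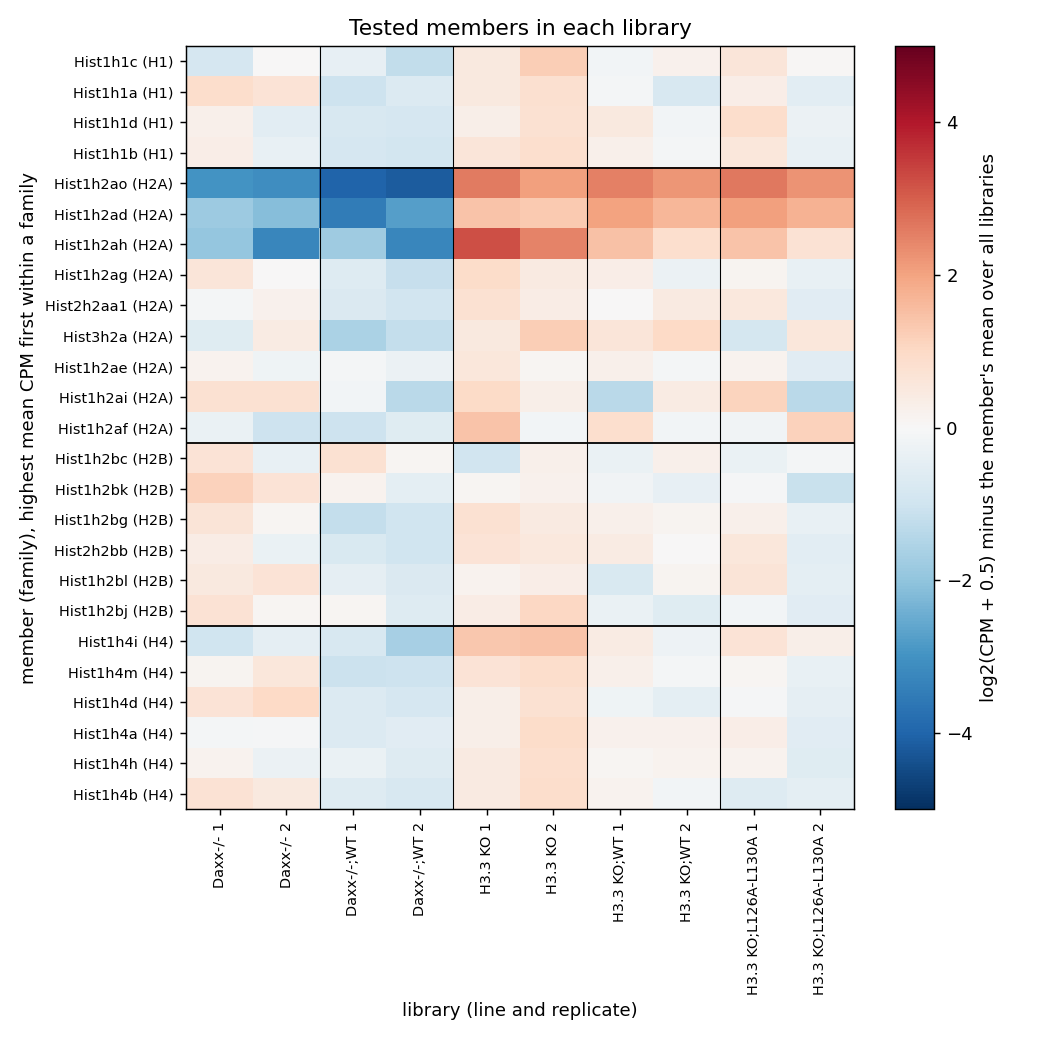
Level of each of the 25 tested members (rows, grouped by family) in each of the 10 libraries (columns), as log2(CPM + 0.5) minus the member's own mean over the 10 libraries, red above and blue below. The 2 DAXX-rescued libraries are blue across most rows, and Hist1h2ao, Hist1h2ad and Hist1h2ah separate the 6 libraries of the H3.3 lines from the 4 of the Daxx lines.

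Marker sums were read beside these in the DAXX comparison. The summed primitive endoderm markers were 8.04 to 22.5 CPM in Daxx-/- and 5.70 to 8.2 CPM with DAXX, which overlap, and 0 of the 5 tested were DE. The summed fibroblast markers were 29.6 to 50.6 CPM against 14.2 to 23.2 CPM, with 0 of 3 tested DE. Most of the fibroblast sum was Thy1, at a mean of 29.8 CPM in Daxx-/- and 13.9 CPM with DAXX. The part of these markers in the result was not tested. Leaving out Daxx-/- replicate 1 gave 5 DE members (Hist1h2bg, Hist1h4b, Hist1h4d, Hist1h4m and Hist3h2a), while 1074 genes in all were then DE against 143. The count at an unadjusted p under 0.05 was 8 without Daxx-/- replicate 1 and 8 without DAXX-rescued replicate 2.

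Members with an annotated transcript that ends near a poly(A) signal were set beside the others, since such transcripts are expected in a poly(A) library. The others are mixed. They include members annotated by their coding part alone, and members annotated far past the stem-loop, such as Hist1h4d (770 bases after it). In the DAXX comparison 8 of the 16 members with a signal and 25 of the other 40 lay lower in both rescued libraries. The median log2 fold change was -0.74 over the 6 tested of the first kind and -1.76 over the 19 tested of the second. In the WT H3.3 comparison 11 of 16 and 15 of 40 lay lower, with medians of -0.68 and -0.81. In the mutant H3.3 comparison 6 of 16 and 12 of 40 lay lower, with medians of -1.03 and -0.76. Among all genes with a count, the share lying lower was 22.9% for DAXX, 23.4% for WT H3.3 and 22.9% for the mutant. The median was the more negative for members without a signal with DAXX and with WT H3.3, but not with the mutant. The share lying lower was larger for them with DAXX and smaller with either form of H3.3. The difference between the kinds was not tested.

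WT H3.3 was then compared with the H3.3 KO line from which it was made. No member was DE in edgeR, DESeq2 or limma, where 0.250% of all genes tested were in edgeR. At an unadjusted p under 0.05 there were 4 members, all lower (Hist1h4i, Hist1h4d, Hist1h2bj and Hist1h1a), against 13.3% of all genes. Over the 56 members 26 lay lower in both WT libraries and 1 higher, beside 23.4% and 25.0% of all genes with a count. Of the 25 tested, 16 lay lower and 1 higher, beside 26.8% and 29.3%. The median log2 fold change of the tested members was -0.72 against 0.02 over all genes.

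H4 was the family with most members lower, 11 of 13, including all 6 tested, whereas 3 of 18 H2A genes were. Of those 6, Hist1h4h reached 1 CPM only in H3.3 KO and Hist1h4b only in libraries of the KO lines. These entered testing through lines where they were high, so the count over the tested genes adds little to that over all 13. Hist1h4i was at 8.09 and 8.5 CPM in H3.3 KO and 3.89 and 2.29 CPM with WT H3.3, a log2 fold change of -1.44 (SE 0.48, adjusted p = 0.255 in edgeR). Hist1h4d was at 1.47 and 2.18 CPM against 0.888 and 0.637 CPM (-1.25, SE 0.49). Hist1h4m was at 2.57 and 3.00 CPM against 1.75 and 1.26 CPM (-0.85). Each of these H4 genes was lower in both rescued libraries, by less than the adjusted test required. Hist1h4b, at 0.960 and 1.45 CPM against 0.687 and 0.457 CPM, did the same.

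The most negative fitted changes were those of Hist1h2bj and Hist1h2ah, and neither passed the test. Hist1h2bj was at 0.790 and 1.53 CPM in H3.3 KO and 0.289 and 0.149 CPM with WT H3.3 (log2 fold change -2.23, SE 0.88). It reached 1 CPM only in libraries of the KO lines, and so entered testing where it was high. Hist1h2ah was at 43.4 and 26.2 CPM against 12.7 and 7.93 CPM (-1.75, SE 0.84, adjusted p = 0.416 in edgeR). The 2 other abundant H2A genes did not follow Hist1h2ah. Hist1h2ao was at 181 and 125 CPM against 172 and 137 CPM, a log2 fold change of 0.01 (SE 0.21). Hist1h2ad was at 54.3 and 50.1 CPM against 83.5 and 65.3 CPM (0.51, SE 0.24, adjusted p = 0.402 in edgeR) and was the 1 member higher in both libraries.

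Among the linker histones Hist1h1a was at 2.66 and 3.41 CPM in H3.3 KO and 1.65 and 0.813 CPM with WT H3.3 (log2 fold change -1.30, SE 0.52), and Hist1h1c was at 4.84 and 8.40 CPM against 2.97 and 3.85 CPM (-0.95, SE 0.51). Hist1h1d overlapped, at 0.990 and 1.57 CPM against 1.22 and 0.602 CPM. In the H2B family Hist1h2bk was at 3.70 and 4.11 CPM against 2.96 and 2.44 CPM and Hist1h2bg at 1.76 and 1.31 CPM against 1.09 and 0.953 CPM, both lower in each library. Hist1h2bc, at 2.24 and 5.80 CPM against 3.68 and 5.83 CPM, and Hist1h2bl, at 0.730 and 0.843 CPM against 0.133 and 0.699 CPM, show the range in this family, the first overlapping and the second not. The count of 4 at an unadjusted p under 0.05 was 0 without H3.3 KO replicate 2 or without WT H3.3 replicate 2, and 2 without WT H3.3 replicate 1. With the 4 libraries of this comparison fitted alone, Hist1h2ah and Hist1h4i were DE, where 2.73% of all genes tested were, against 0.25% in the main fit.

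The mutant H3.3 line shares its H3.3 KO control libraries with the WT H3.3 line, so its values are given beside those above and not as a second observation. No member was DE in edgeR, DESeq2 or limma, where 0.788% of all genes tested were in edgeR. At an unadjusted p under 0.05 there were 4 members lower and 1 higher, against 16.9% of all genes. Over the 56 members 18 lay lower in both mutant libraries and 2 higher, beside 22.9% and 21.4% of all genes with a count. Of the 25 tested, 12 lay lower and 1 higher, beside 24.2% and 25.8%, and the median log2 fold change was -0.82 against 0.03 over all genes.

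H4 genes again had most members lower, 8 of 13. Hist1h4b was at 0.170 and 0.261 CPM with the mutant, against 0.960 and 1.45 CPM in H3.3 KO, a log2 fold change of -2.28 (SE 0.60, adjusted p = 0.107 in edgeR). Hist1h4m was at 1.54 and 0.984 CPM (-1.13, SE 0.45), Hist1h4d at 1.01 and 0.656 CPM (-1.13, SE 0.49) and Hist1h4i at 4.82 and 3.61 CPM (-0.98, SE 0.47). Each lay below both KO libraries without passing the adjusted test. The H2B gene Hist1h2bj, at 0.411 and 0.180 CPM (-2.05, SE 0.87), did so too. The summed formative epiblast markers were 116 to 291 CPM in the mutant line against 72.7 to 80.2 CPM in H3.3 KO, with 0 of 5 tested DE. Most of this sum was Dnmt3b, at a mean of 189 CPM (SD 128) against 60.6 CPM. The median log2 fold change of the 5 tested was 0.01. The part of these markers in the member values was not tested.

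Hist1h2ah was at 12.3 and 7.29 CPM with the mutant, a log2 fold change from H3.3 KO of -1.83 (SE 0.85). Hist1h2ad was at 84.4 and 68.7 CPM, above both KO libraries (0.55, SE 0.24, adjusted p = 0.289 in edgeR), and Hist1h2ao, at 187 and 140 CPM, overlapped them (0.10, SE 0.21). The H2A genes of this trio thus kept the order they had with WT H3.3. Hist3h2a was at 1.79 and 3.34 CPM in H3.3 KO, 1.99 and 2.78 CPM with WT H3.3 and 0.405 and 1.92 CPM with the mutant.

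In the mutant line replicate 1 was often the higher library, which was not particular to this line. All members together took a larger share of replicate 1 than of replicate 2 in each of the 5 lines. Without Hist1h2ao, Hist1h2ad and Hist1h2ah, replicate 1 had the higher sum in the Daxx lines and the mutant line, but not in H3.3 KO (60.3 against 69.1 CPM). In the mutant line Hist1h1a was at 2.36 and 1.09 CPM, Hist1h1c at 5.29 and 3.44 CPM and Hist1h1d at 1.76 and 0.496 CPM. Hist1h2bk was at 3.29 and 1.33 CPM, Hist1h2bg at 1.08 and 0.527 CPM, Hist1h2bl at 1.17 and 0.267 CPM and Hist1h2bc at 3.74 and 4.41 CPM. Within this line the spread was as wide as the distance to the KO line for several members, and the count of 5 at an unadjusted p under 0.05 was 10 without mutant replicate 1. It was 1 without H3.3 KO replicate 2 or WT H3.3 replicate 1, 2 without WT H3.3 replicate 2, and 3 without H3.3 KO replicate 1 or mutant replicate 2.

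Mutant and WT H3.3 were compared directly. Each line was transduced with its own transgene, and the paper found far less mutant than WT H3.3 in whole-cell blots of fibroblasts. Incorporation of H3.3 into nucleosomes therefore cannot be told apart here from its amount or from the line. No member was DE in edgeR, DESeq2 or limma, where 0.515% of all genes tested were in edgeR, and 0 members had an unadjusted p under 0.05 (1 without mutant replicate 2), against 12.3% of all genes. Over the 56 members 4 lay lower and 6 higher with the mutant, beside 21.6% and 18.8% of all genes with a count. Of the 25 tested, 2 lay lower and 0 higher, beside 23.2% and 22.0%. These 2 were Hist1h4b (log2 fold change -1.25, SE 0.63) and Hist3h2a (-1.01, SE 0.79). The median log2 fold change was -0.08 against 0.00 over all genes, and with standard errors of 0.21 to 1.66 a 2-fold difference in a single low member was not detectable at this depth.

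**Figure D4:**
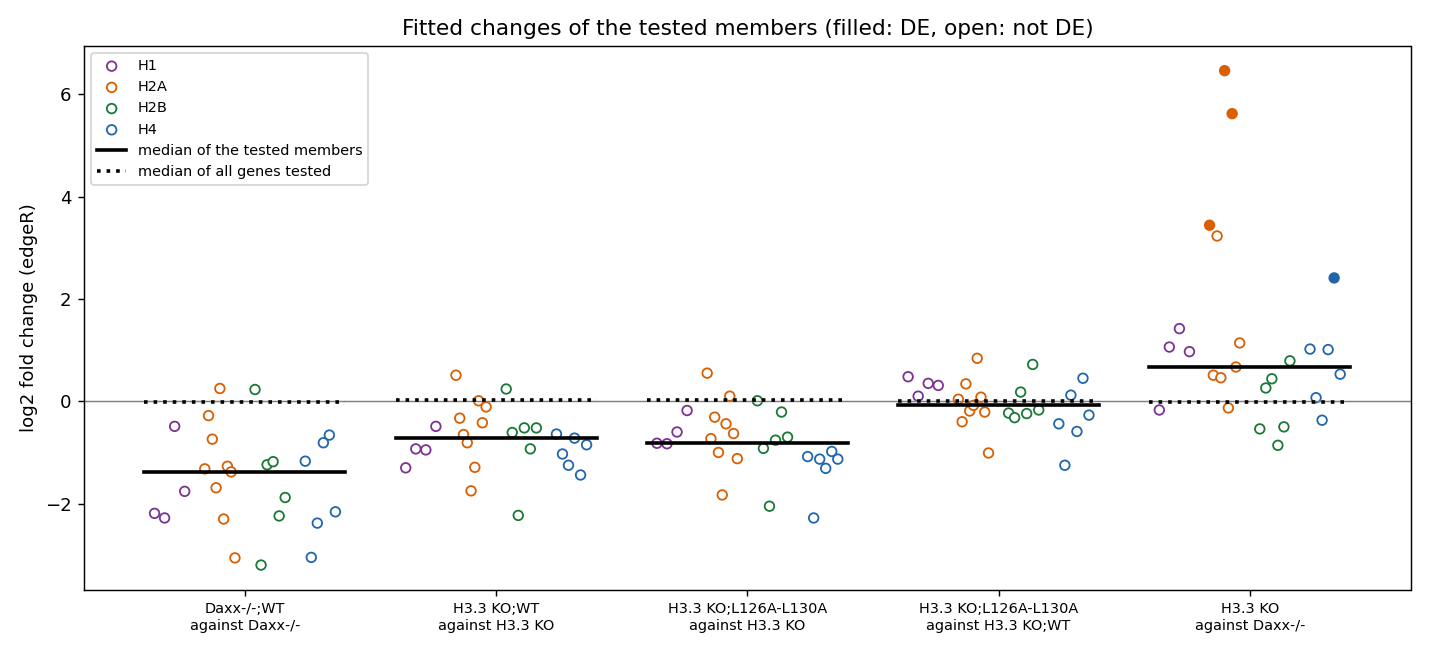
Log2 fold change (y axis, edgeR) of the 25 tested members in each of the 5 comparisons (x axis), coloured by family, with DE members filled. Solid lines mark the median of the 25 members (-1.38, -0.72, -0.82, -0.08 and 0.67 from left to right), and dotted lines the median of all genes tested, between -0.02 and 0.03.

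Whether the DAXX and WT H3.3 transgenes moved a member by different amounts was tested in the same fit, after the values had been seen. The difference of the log2 fold changes passed for no member, and the smallest adjusted p was 0.160, for Hist1h2ad (-1.83, SE 0.39), which was lower with DAXX and higher with H3.3. It was -2.01 (SE 0.84) for Hist1h4b and 0.78 (SE 0.70) for Hist1h4i.

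The 2 KO lines differ in strain, cell line and missing gene, which cannot be told apart here. Between them 4 members were DE, all higher in H3.3 KO, where 11.7% of all genes tested were DE, and 6 had an unadjusted p under 0.05, all higher, against 38.0%. Over the 56 members 22 lay higher and 5 lower, beside 27.2% and 25.8% of all genes with a count. Of the 25 tested, 14 lay higher and 2 lower, beside 30.8% and 29.4%. The median log2 fold change was 0.67 against -0.02 over all genes.

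The 4 members that rose were Hist1h2ao, Hist1h2ad and Hist1h2ah, which encode H2A, and Hist1h4i. Hist1h2ao was at 181 and 125 CPM in H3.3 KO and 3.23 and 3.02 CPM in Daxx-/-, 49.1-fold higher (log2 fold change 5.62, SE 0.27, adjusted p = 5.26e-05 in edgeR). Hist1h2ad was 10.9-fold higher (3.44, SE 0.28, adjusted p = 0.00054 in edgeR) at 54.3 and 50.1 CPM against 5.41 and 4.16 CPM. Hist1h2ah had 43.4 and 26.2 CPM against 0.755 and 0 CPM (6.46, SE 1.13, adjusted p = 0.00551 in edgeR). Of its Daxx-/- counts, 13.61 were in replicate 1 and 0 in replicate 2, where a count of 0 allows up to 3, so the size of this change is poorly set. Hist1h2ah reached 1 CPM only in the H3.3 lines, and so entered testing through the lines where it was high.

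Hist1h4i was 5.33-fold higher in H3.3 KO, at 8.09 and 8.5 CPM against 1.16 and 1.97 CPM (log2 fold change 2.41, SE 0.50, adjusted p = 0.0104 in edgeR). It was no longer called without H3.3 KO replicate 2 (adjusted p = 0.0573 in edgeR). Hist1h2af, an H2A gene at 2.25 and 0.422 CPM against 0.303 and 0 CPM, and Hist1h1c made up the 6 at an unadjusted p under 0.05. Hist1h2af too reached 1 CPM only in the H3.3 lines. Hist1h1c (1.42, SE 0.52, adjusted p = 0.0776 in edgeR) was called by DESeq2, where 13% of all genes tested were called. The 2 members lower in both libraries were the H2B genes Hist1h2bk (-0.86, SE 0.47) and Hist1h2bl (-0.50, SE 0.79).

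The summed fibroblast markers were 11.6 to 13.9 CPM in H3.3 KO against 29.6 to 50.6 CPM in Daxx-/-, with Thy1 DE and lower (log2 fold change -2.11). The fibroblast markers Col1a2, Col3a1 and Lum never passed 0.333 CPM in any library. The epiblast marker Otx2 was DE and lower (-2.99). Of the 5 epiblast markers tested, 1 lay lower in both libraries and 0 higher, and their median log2 fold change was -0.1. The part of these markers in the result was not tested.

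Hist1h2ao and Hist1h2ad stayed near the level of the parent H3.3 KO line in the H3.3 rescued lines, whereas Hist1h2ah and Hist1h4i lay below it there, as given above. In the DAXX-rescued line Hist1h2ao was at 1.37 and 1.16 CPM, and in the H3.3 rescued lines it lay between 137 and 187 CPM. Hist1h2ad and Hist1h2ah too were higher in each of the 6 H3.3 libraries than in any of the 4 Daxx libraries. Hist1h2ag, which differs from Hist1h2ad by 2 coding bases, did not show it: its range was 0.433 to 3.46 CPM over all 10 libraries. Hist1h2ap, with the coding sequence of Hist1h2ao, was listed at 0 in 8 libraries and at 0.120 and 0.113 CPM in the mutant line. The way RSEM shared reads between these genes cannot be checked from the table.

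H2A and H2B genes often stand head to head and share the DNA between their starts, so the partner of each gene was read as well. Hist1h2bq, the H2B neighbour of Hist1h2ao, was at 0.102 to 0.673 CPM in all libraries and shares its values with Hist1h2br. Hist1h2bf, the neighbour of Hist1h2ad, was at 0 to 0.392 CPM, and Hist1h2bk, the neighbour of Hist1h2ah, was lower in H3.3 KO than in Daxx-/-. The KO lines overlapped in Hist1h2bq and Hist1h2bf, so none of the 3 partners was higher in H3.3 KO in step with its H2A gene. Hist1h2ah, Hist1h2bk and Hist1h4i are consecutive genes in the annotation, so that 2 of the 4 DE members flank an H2B gene that went the other way. Hist1h4m, the next gene after Hist1h2ao, was at 2.57 and 3.00 CPM in H3.3 KO and 1.58 and 2.29 CPM in Daxx-/-.

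**Figure D5:**
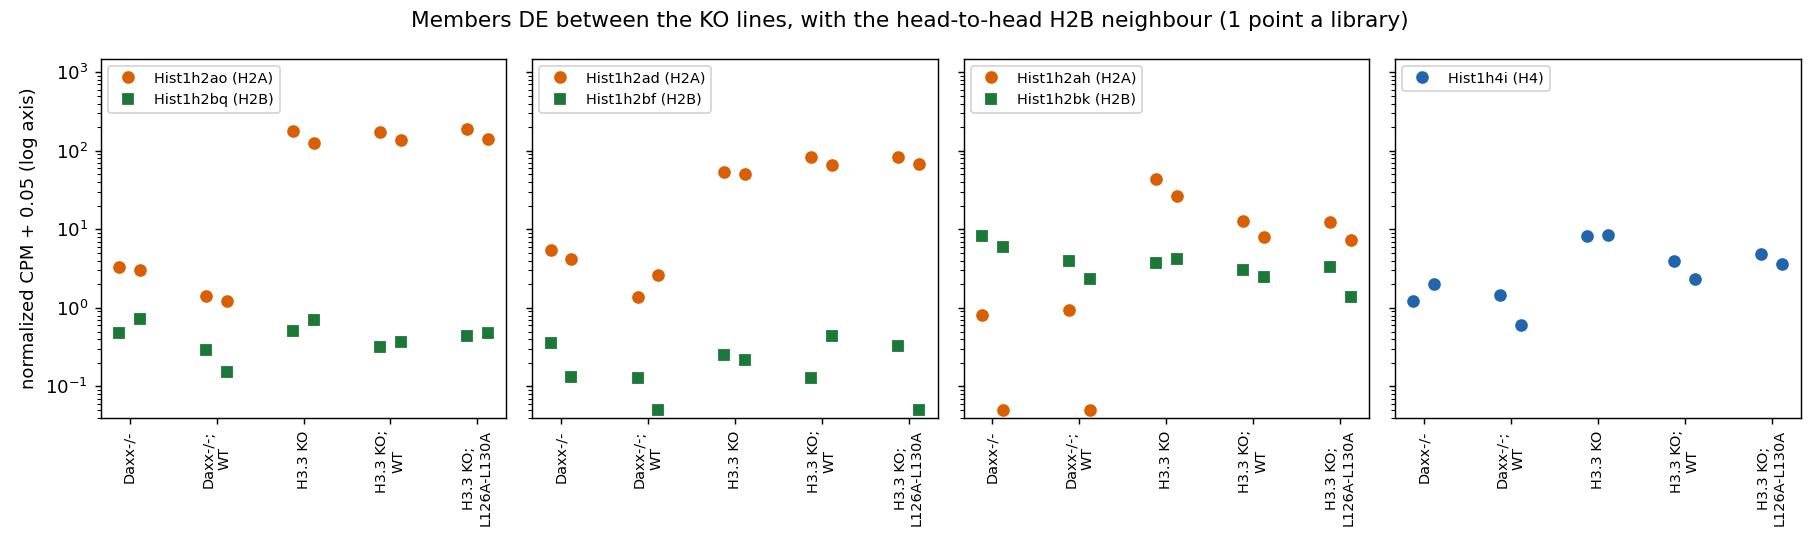
Normalized CPM + 0.05 (y axis, log scale) in each line (x axis, 1 point a library) of the 4 members DE between the KO lines, each H2A gene with its head-to-head H2B neighbour. Hist1h2ao lies at 125 to 187 CPM in the 6 H3.3 libraries and at 1.16 to 3.23 CPM in the 4 Daxx libraries, while Hist1h2bq stays under 1 CPM in all 10.

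The promoters of the 4 members DE between the KO lines are shown. RefSeq promoters of GRCm38.p6 (250 bases before to 50 after the start) matched 51 of the 56 members through their synonyms. Capitals mark the letters TATAAA (the core of a TATA box), CCAAT (the core of an NF-Y site) and ATTTGCAT (the octamer, bound by proteins of the OCT family), at any position in the window. Each was sought on both strands, and none of these motifs contains another. Hist1h2ao (RefSeq symbol H2ac23) is at chr13:21810117-21810416 on the plus strand, Hist1h2ad (H2ac7) at chr13:23574131-23574430 on the plus strand, Hist1h2ah (H2ac12) at chr13:22035594-22035893 on the minus strand and Hist1h4i (H4c9) at chr13:22041313-22041612 on the minus strand.

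Hist1h2ao: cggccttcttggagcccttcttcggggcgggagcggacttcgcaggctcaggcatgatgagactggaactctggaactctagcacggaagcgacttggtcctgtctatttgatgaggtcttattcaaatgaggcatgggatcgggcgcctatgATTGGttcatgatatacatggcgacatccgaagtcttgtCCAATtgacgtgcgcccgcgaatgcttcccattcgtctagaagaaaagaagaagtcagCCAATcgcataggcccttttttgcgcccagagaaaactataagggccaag
Hist1h2ad: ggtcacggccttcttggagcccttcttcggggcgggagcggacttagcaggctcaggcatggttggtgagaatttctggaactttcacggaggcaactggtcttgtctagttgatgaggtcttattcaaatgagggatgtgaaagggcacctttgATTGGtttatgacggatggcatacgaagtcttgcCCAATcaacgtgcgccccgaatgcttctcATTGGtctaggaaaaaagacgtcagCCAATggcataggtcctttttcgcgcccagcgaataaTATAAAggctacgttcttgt
Hist1h2ah: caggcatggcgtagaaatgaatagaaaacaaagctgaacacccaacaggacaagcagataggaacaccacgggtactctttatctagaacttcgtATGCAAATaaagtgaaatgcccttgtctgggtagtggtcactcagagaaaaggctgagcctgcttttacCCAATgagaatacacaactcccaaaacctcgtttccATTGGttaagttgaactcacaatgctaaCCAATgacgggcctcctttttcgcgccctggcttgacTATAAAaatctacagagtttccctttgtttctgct
Hist1h4i: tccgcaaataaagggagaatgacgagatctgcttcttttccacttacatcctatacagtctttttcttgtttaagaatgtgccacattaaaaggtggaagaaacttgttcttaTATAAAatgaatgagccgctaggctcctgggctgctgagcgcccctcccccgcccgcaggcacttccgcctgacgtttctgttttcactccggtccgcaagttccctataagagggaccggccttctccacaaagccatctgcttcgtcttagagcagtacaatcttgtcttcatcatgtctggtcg

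CCAAT was found in all 3 H2A promoters shown, TATAAA in those of Hist1h2ad, Hist1h2ah and Hist1h4i, and the octamer in that of Hist1h2ah alone. TATAAA lies after the annotated start in Hist1h2ad and Hist1h2ah and far upstream of it in Hist1h4i, so these letters are not at the usual place of a TATA box relative to the annotated start. CCAAT stood in 42 of the 51 member promoters and in 37.9% of all 27025 promoters of this length, with 17 of 17 H2A and 16 of 16 H2B promoters but 3 of 12 H4 promoters. TATAAA stood in 31 members and 14.2% of all promoters, and the octamer in 13 members, 7 of them H2A and 6 H2B, and 1.75% of all. A match describes letters in these windows and is not evidence of binding.

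The clustered H3 genes, partners of H4, were lower with DAXX, as most members were, and higher in sum with either form of H3.3, where most members were not. Of 12 genes 7 were tested. With DAXX their summed level was 4.38 to 5.55 CPM against 14.6 to 18.1 CPM, and 1 was DE and lower, Hist1h3a (log2 fold change -2.19, SE 0.34, adjusted p = 0.0272 in edgeR). With WT H3.3 the sum was 187 to 204 CPM and with the mutant 164 to 178 CPM, against 16 to 22.9 CPM in H3.3 KO, and Hist1h3a, Hist1h3b and Hist1h3h were DE and higher in both. Hist1h3a was at a mean of 87.1 CPM with WT H3.3, 74.0 CPM with the mutant and 1.19 CPM in H3.3 KO. These lines carry an H3.3 transgene that resembles H3 genes, and its part in the H3 values was not tested.

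Genes that act on histone mRNA held no DE gene between a rescued line and its KO line. Of 17 genes for histone gene transcription and 3′ processing, all tested, 0 were DE in the 4 comparisons that involve a rescued line, with 2, 2, 1 and 1 genes at an unadjusted p under 0.05 and median log2 fold changes of 0.03 to 0.12. Slbp was at a mean of 131 CPM in Daxx-/- and 148 CPM with DAXX, and changed by -0.14 on the log2 scale with WT H3.3 and 0.09 with the mutant, none past the test. Npat, the coactivator of histone gene transcription in S phase, was at 80.3 and 79.0 CPM in the Daxx lines and 65.6, 72.1 and 73.2 CPM in the H3.3 lines. Lsm10, a subunit of the U7 snRNP that cuts histone pre-mRNA, had a log2 fold change of -0.06 with DAXX. Lsm11, the other such subunit, was lower in both libraries of each rescued line (-0.53 for DAXX, -0.49 for WT H3.3 and -0.90 for the mutant), with adjusted p of 0.0863 or more in edgeR.

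Between the KO lines 2 genes of this list were DE, both lower in H3.3 KO. Hinfp, a transcription factor of H4 genes, had a log2 fold change of -1.34 (SE 0.17, adjusted p = 0.00177 in edgeR) and Upf1, which takes part in decay of histone mRNA, one of -1.21 (SE 0.14, adjusted p = 0.00135 in edgeR). Of 21 S-phase and cell cycle genes 0 were DE in any of the 5 comparisons, with 1 to 3 at an unadjusted p under 0.05 in the 4 that involve a rescued line and 10 between the KO lines. Their median log2 fold changes were -0.06 for DAXX, -0.02 for WT H3.3, 0.14 for the mutant and 0.18 for mutant against WT. Of the 21, 3 lay higher and 5 lower in both libraries with DAXX (21.7% and 24.7% of all genes tested). With WT H3.3 these were 3 and 6 (29.3% and 26.8%). With the mutant 11 lay higher and 1 lower than H3.3 KO (25.8% and 24.2%), and 12 higher and 0 lower than WT H3.3 (22.0% and 23.2%). The summed level of these 21 genes was 5450 to 7110 CPM in Daxx-/- and 5860 to 6490 CPM with DAXX. None of 14 histone chaperones and modifiers was DE (0 genes), with 1 to 3 at an unadjusted p under 0.05 in each comparison. The phase of the cells was not measured.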

How the data were processed

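Poly(A) RNA of 10 libraries, 2 biological replicates for each of 5 mESC lines grouped by their labels, was analysed. The authors aligned the reads with Bowtie and estimated expression with RSEM (mm9 in the submitters' processing notes), and what they deposited is a table of RSEM expected counts, unscaled for depth or length although named TPM. Near-identical histone genes share reads, which RSEM divides by its model. Counting error is therefore not the only error, and apart from the limit of 3 counts for a library at 0, which covers counting error only, no interval is given from counts. All 10 columns were used.

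Values were rounded to whole numbers, with median-of-ratios factors of 0.936 to 1.04. Genes reaching 1 CPM in 2 or more libraries were fitted with edgeR 4.0.16 in R 4.3.3 (quasi-likelihood test, trended dispersion with a common value of 0.0522, 4.07 prior and 5 residual degrees of freedom) in 1 fit of all 10 libraries, with Benjamini-Hochberg adjustment over 13201 genes. A standard error is the log2 fold change divided by the square root of F. A gene was DE at an adjusted p under 0.05 and a 2-fold change. Libraries of 2 lines did not overlap where both of one lay beyond both of the other. Replicates differed by a chi-square per gene of 10.9 to 73.4, so no pair was 1 library deposited again. The fit was tested on simulated data.

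Members named with values were those DE in any comparison, the 3 with the highest mean CPM in each family, and the 2 largest rises and falls of a comparison among tested members that did not overlap. Others named, such as Hist1h2af, Hist1h2ag, Hist1h2ap, the head-to-head neighbours and the genes counted singly, were chosen after their values were seen. The members and gene lists were chosen with earlier results of these data known. A list of 18 RNAs without a poly(A) tail had no member among the genes measured (0 found). Sequences come from GENCODE M21 transcripts and RefSeq promoters of GRCm38.p6, read in Python 3.11.15 with pandas 2.3.3. That build differs from mm9, and no other coordinate is given. Alternatives used TMM factors, library size alone, other filters, each comparison alone, a replicate block, DESeq2 1.42.0, limma 3.58.1 and each library left out.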

Additional observations from a re-analysis of the deposited data

How the results depend on the processing

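The 4 DE members between the KO lines were 3 with a mean of at least 5 CPM and 5 without a filter, which adds Hist1h2ac, and 3 to 4 when a library was left out. DE members in the DAXX comparison numbered 1 without a filter (Hist1h2bg), 7 with DESeq2, 1 with limma (added after the data were seen), 9 with a replicate block and 0 to 5 when a library was left out. With WT H3.3 they numbered 2 when the comparison was fitted alone. In the mutant and mutant against WT comparisons the count stayed at 0 in every alternative. The labels name nothing that same-numbered libraries share. Their deviations correlated at -0.06 to 0.53 over 10 pairs of lines, 7 of them over 0.1 and 0.53 between the Daxx lines, so some pairs deviated together but not all, and the fit without the block was kept. The 9 members under the block were Hist1h1a, Hist1h2ad, Hist1h2ag, Hist1h2ao, Hist1h2bg, Hist1h4b, Hist1h4d, Hist1h4m and Hist3h2a, where 4.7% of all genes were DE. Over all genes, the 143 DE with DAXX were 621 with the replicate block, 233 without a filter, 531 with DESeq2, 240 with limma, 0 fitted alone and 1 to 1074 when a library was left out. For WT H3.3, 33 became 105, 53, 213, 55, 360 and 2 to 61 in that order, and for the mutant 104 became 461, 203, 444, 173, 38 and 2 to 231. For mutant against WT, 68 became 234, 125, 323, 96, 39 and 0 to 102, with 38 at a mean of 5 CPM and 39 with library size alone. Between the KO lines 1543 became 820 fitted alone and 706 to 2097 when a library was left out.

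Members not overlapping with DAXX were 2 higher and 33 lower without a filter, and 2 lower at a mean of at least 5 CPM. With WT H3.3, 26 and 1 were lower under those filters. With the mutant, 2 were higher without a filter and 1 lower at 5 CPM. Mutant against WT gave 6 higher and 4 lower without a filter, 0 lower at 5 CPM and 1 lower with library size alone. Between the KO lines 22 were higher and 5 lower without a filter, against 3 and 0 at 5 CPM, where few members are left. Without the 3 DE H2A genes the log2 ratio of the H2A sum was -0.56 with WT H3.3, -0.69 with the mutant and 0.64 between the KO lines. Summed ratios near 0 changed sign: with a library left out, all members went from -0.28 to 0.05 and H2A from -0.25 to 0.22 with WT H3.3, and all members from -0.30 to 0.13 and H2A from -0.19 to 0.28 with the mutant. Each of the 5 sums of mutant against WT did so too. The sums in the DAXX and KO line comparisons kept their sign in the alternatives run. Most members had fewer than 100 counts a library, which limits single-gene tests.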
